A study of Caenorhabditis elegans with 66 samples.

Results

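The nucleoplasmic fraction of short capped RNA was compared between *rpb-9* mutants and wild type at the piRNA loci of *Caenorhabditis elegans*. In wild type, 2 libraries were made, and 2 were made from *rpb-9* (*mj261*) mutants, all from animals grown at 20°C and labelled as whole animals. The table names the wild-type libraries sx1316, which the labels do not explain. The study's methods describe germ nuclei isolated from young adults and separated into a chromatin-bound (nascent) and a nucleoplasmic fraction. Rescue animals, which carry the transgene *mjSi70* in the *mj261* background, gave 2 further nucleoplasmic libraries and are given only as context. The nature of the *mj261* lesion is not stated in the labels. Members were all loci with at least 1 read in any of the 4 nucleoplasmic libraries, 2389 of the 11382 loci in the deposited table. By class, 1134 were 21UR loci of cluster II on chromosome IV, 96 were 21UR loci of cluster I, 30 were 21UR loci elsewhere, 1114 were motif-independent, and 15 were listed as type 1 but carried no 21UR name. No locus of the table lies in *rpb-9* itself, and the table holds piRNA loci alone, so neither the mutated gene nor germline markers were checked here.

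piRNAs of *C. elegans*, also called 21U-RNAs, are germline small RNAs that begin with a uridine and act with the Argonaute PRG-1. Each motif-dependent locus is a small transcription unit of its own, with an upstream element known as the Ruby motif and a capped transcript made by RNA polymerase II, of which RPB-9 is a small subunit. The capped precursor starts 2 nt upstream of the uridine, is released into the nucleoplasm, and loses its cap, its first bases and its 3′ extension before it becomes a mature piRNA. Motif-independent piRNAs come from sites without that element, many of them at the starts of other genes.

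A set of 10 loci carries the findings below and is shown from 60 bases upstream to 50 bases downstream of the annotated first base of the piRNA, 5′ to 3′, as read from WBcel235 (ce11). Capitals mark the 21 bases of the piRNA and, where the window from 60 to 31 bases upstream holds it, the letters GTTTC of the Ruby motif core. The loci are 21UR-5491 (chrIV:15757811-15757921, plus strand), 21UR-5842 (chrIV:16060659-16060769, minus strand), 21UR-5523 (chrIV:15657125-15657235, minus strand), 21UR-602 (chrIV:15433706-15433816, plus strand), 21UR-1437 (chrIV:16043451-16043561, minus strand), 21UR-2351 (chrIV:13912893-13913003, plus strand), 21UR-1200 (chrIV:14558311-14558421, plus strand), 21UR-6103 (chrIV:15686827-15686937, plus strand), the *smy-1* locus (chrIV:9511787-9511897, minus strand) and the W04D2.7 locus (chrV:12491222-12491332, plus strand).
21UR-5491: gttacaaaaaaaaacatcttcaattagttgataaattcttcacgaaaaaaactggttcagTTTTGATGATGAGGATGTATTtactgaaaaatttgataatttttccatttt
21UR-5842: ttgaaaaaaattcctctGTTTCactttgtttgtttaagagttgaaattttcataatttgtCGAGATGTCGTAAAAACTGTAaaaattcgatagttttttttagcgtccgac
21UR-5523: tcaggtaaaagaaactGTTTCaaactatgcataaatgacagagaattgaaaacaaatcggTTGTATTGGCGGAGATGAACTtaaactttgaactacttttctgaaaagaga
21UR-602: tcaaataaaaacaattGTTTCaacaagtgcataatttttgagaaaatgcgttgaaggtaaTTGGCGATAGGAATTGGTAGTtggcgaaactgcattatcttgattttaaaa
21UR-1437: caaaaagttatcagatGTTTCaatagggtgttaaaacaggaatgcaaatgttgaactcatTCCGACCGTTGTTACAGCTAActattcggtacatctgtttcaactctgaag
21UR-2351: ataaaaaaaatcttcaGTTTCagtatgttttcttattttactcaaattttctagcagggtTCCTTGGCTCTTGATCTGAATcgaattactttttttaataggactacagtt
21UR-1200: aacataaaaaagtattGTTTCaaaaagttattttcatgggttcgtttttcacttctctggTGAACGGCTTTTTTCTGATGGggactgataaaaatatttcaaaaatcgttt
21UR-6103: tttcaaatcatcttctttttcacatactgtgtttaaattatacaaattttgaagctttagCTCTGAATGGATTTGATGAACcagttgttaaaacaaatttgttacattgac
smy-1 locus: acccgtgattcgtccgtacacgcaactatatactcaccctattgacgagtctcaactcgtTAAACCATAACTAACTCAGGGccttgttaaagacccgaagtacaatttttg
W04D2.7 locus: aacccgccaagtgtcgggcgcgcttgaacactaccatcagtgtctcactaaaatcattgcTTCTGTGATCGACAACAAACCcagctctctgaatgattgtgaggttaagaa

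GTTTC was found on the strand of transcription at 763 of the 1134 cluster II members (67.3%) and 63 of the 96 cluster I members (65.6%). It was found at 60 of 1114 motif-independent members (5.39%). In windows of the same 30 bases, 72.6% of 15363 annotated piRNA genes and 5.48% of 19985 annotated starts of protein-coding genes held it. The reverse complement, GAAAC, was found in 2.12% of cluster II, 1.04% of cluster I and 3.77% of motif-independent members. Of the sequences shown, 21UR-5842 and 21UR-6103 begin with C in the reference, whereas 95.0% of the cluster II members begin with T. The 40 bases after the piRNA were 71.7% A or T on average at cluster II members and 65.6% at motif-independent members.

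The libraries were dominated by one locus outside the piRNA clusters. Between 569465 and 1593124 counts per library fell on the loci, of which W04D2.7, a snoRNA gene inside *inx-11*, took 70.9% to 91.0%. The chromosome IV clusters held 6784 and 3439 counts in wild type and 5951 and 2045 in *rpb-9* mutants, and 716 of the 1230 cluster loci (58.2%) were seen in a single library. Levels below are the authors' normalized signal, which is the count multiplied by 1 constant per library (1.08 to 2.18). How the constant was set is not stated. With 2 libraries a genotype, an exact permutation test over libraries cannot give a two-sided p-value below 0.333, so for sums and medians over a library only the values and their overlap are informative. Intervals and limits from counts cover counting error only.

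Motif-dependent precursors of both clusters were lower in *rpb-9* mutants, and cluster I was the lower of the pair. In cluster I, wild type gave summed signals of 714 and 471, and *rpb-9* mutants gave 122 and 46.8. The genotypes did not overlap, and the *rpb-9* mean of 84.5 ± 53.2 (SD, n = 2) was 14.3% of the wild-type mean of 593 ± 172 (SD, n = 2; exact permutation test, two-sided, p = 0.333). Cluster II, which holds most of the precursors, gave 10449 and 7028 in wild type and 6309 and 3044 in *rpb-9* mutants. Again no *rpb-9* library reached the lower wild-type library, and the *rpb-9* mean was 53.5% of the wild-type mean (exact permutation test, two-sided, p = 0.333). The difference in cluster II turned to a log2 ratio of 0.30 when each library was divided by its total count, where W04D2.7 sets the total, and was −1.06 when the total was taken without W04D2.7. In cluster I the log2 ratio was −1.54 and −2.95 with these scalings. Against −0.90 in all 4 libraries, the cluster II log2 ratio was −1.52 without *rpb-9* replicate 1 and −0.47 without *rpb-9* replicate 2, and in cluster I it ran from −3.66 to −2.28 in the same order. A smaller share of germ nuclei and less RNA per nucleus cannot be told apart in these libraries.

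**Figure D1:**
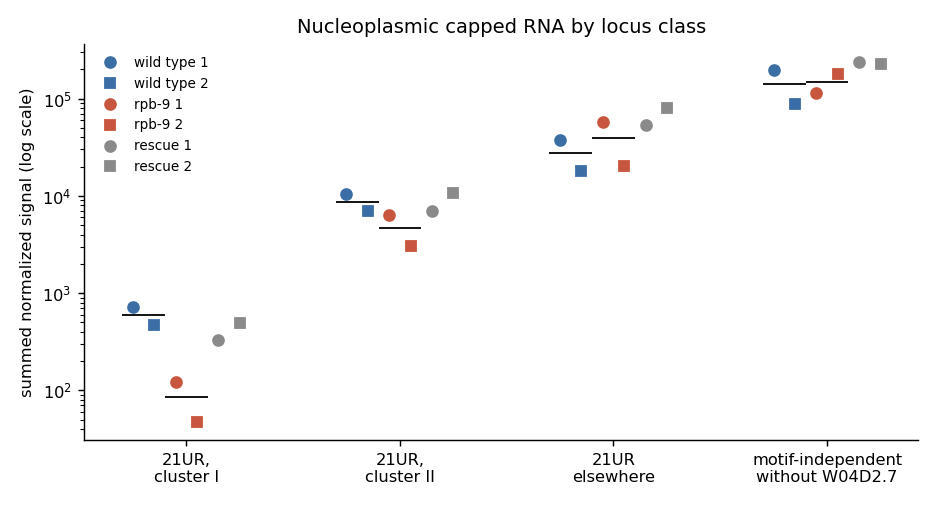
Summed normalized signal (log axis) of 4 classes of loci in each nucleoplasmic library of wild type, *rpb-9* mutants and rescue animals, with black bars at the means of wild type and *rpb-9* mutants (n = 2 each). In cluster I and cluster II both *rpb-9* libraries lie below both wild-type libraries, and in the other classes the genotypes overlap.

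The number of loci detected followed the signal in cluster I. Wild type had 58 and 36 detected cluster I loci, and *rpb-9* mutants had 18 and 14. Of the 96 loci, 69 were seen in wild type alone, 16 in *rpb-9* mutants alone and 11 in both. Cluster II loci were detected in similar numbers, 615 and 423 against 570 and 385, which overlap. Of its 1134 loci, 377 were seen in wild type alone and 347 in *rpb-9* mutants alone. Motif-independent loci were detected in larger numbers in the mutants, 692 and 523 against 457 and 357 in wild type, without overlap. Rescue libraries held still more, 839 and 814, and also more cluster II loci (879 and 904) than any wild-type or mutant library. These numbers were not adjusted for depth, so they are not read as a difference between genotypes. Over all 2389 members, 686 were seen in wild type alone and 889 in *rpb-9* mutants alone.

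Per locus, 252 of the 2389 members had at least 10 counts in at least 2 libraries and entered the quasi-likelihood test of edgeR, in which the authors' constants set the library sizes. At an adjusted p-value under 0.05 (Benjamini-Hochberg), 0 loci were called (0% of those tested). The smallest adjusted p was 0.287, and 31 loci had an unadjusted p under 0.05, 21 of them lower (8.33%) and 10 higher (3.97%) in *rpb-9* mutants. DESeq2 with the same size factors called 6 loci, and limma on the log2 signal called 0. Of the 31, 15 were cluster loci and all 15 were lower in *rpb-9* mutants. Another 15 were motif-independent, 6 of them lower and 9 higher.

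The direction of the loci at which the genotypes did not overlap differed by class. Across all tested loci, 84 (33.3%) were lower in both *rpb-9* libraries than in both wild-type libraries, and 42 (16.7%) were higher. Among the 108 tested cluster loci, 55 were lower without overlap (50.9%) and 2 were higher (1.85%). The filter of at least 10 counts in at least 2 libraries could be passed through the 2 libraries of 1 genotype alone. Entry may thus have favoured loci that differ, and how far this sets these counts was not tested. With the filter, 96 cluster loci had a log2 fold change below 0 and 12 above 0. Without it, 761 of 1230 were below 0 and 469 above 0, with a median of −1.30. Many of these 1230 loci were seen in a single library. Among the 142 tested motif-independent loci, 29 were lower (20.4%) and 39 higher (27.5%). The median log2 fold change was −0.93 in the clusters, 0.13 at motif-independent loci and −0.40 over all 252 loci. The cluster median was −1.99 without *rpb-9* replicate 1 and −0.71 without *rpb-9* replicate 2. The motif-independent median was 1.17 with the total count and 1.54 without the filter on low counts, and it was −0.070 without wild-type replicate 2. Scaling by TMM factors moved the median of all loci by 0.33 and scaling by the total count moved it by 1.16, to 0.76, so the direction of a class depends on the scaling. Relative to the median of all tested loci, the cluster median lay at −0.53 with the authors' constants, −0.53 with TMM factors and −0.72 with the total count. A change of scaling moves all loci by a similar amount, so the likeness of these values was largely given in advance. With counts divided by the total without W04D2.7, an alternative chosen after the data had been seen, 59 cluster loci were lower without overlap and 2 higher, and with the full total 16 were lower and 2 higher.

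**Figure D2:**
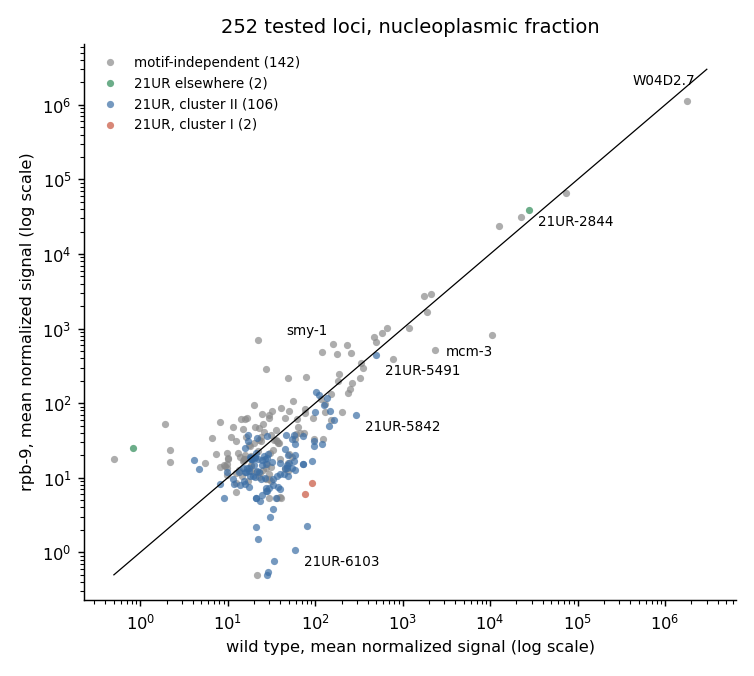
Mean normalized signal of the 252 tested loci in wild type (horizontal) and *rpb-9* mutants (vertical), both on log axes, n = 2 libraries each, with the line of equal signal. Means below 0.5 are drawn at 0.5. Most cluster loci (108) lie under the line, and motif-independent loci (142) lie on both sides.

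Among the most abundant cluster precursors, the genotypes overlapped at the first and not at the next 3. 21UR-5491 (WBGene00167621; chromosome IV, 15757871 to 15757891), which has no GTTTC in the window shown, had a signal of 627 and 359.8 in wild type and 605 and 278 in *rpb-9* mutants. The genotypes overlapped, and the fitted log2 ratio, *rpb-9* over wild type, was −0.16 (standard error, SE, 0.64, edgeR adjusted p = 0.941) and turned to 0.20 with TMM factors and 1.10 with the total count. 21UR-5842 (WBGene00171422; 16060689 to 16060709), next in the wild-type order, had 360 and 222 in wild type and 88.6 and 51.4 in *rpb-9* mutants. Both mutant values lay below both wild-type values, and the fitted log2 ratio was −2.05 (SE 0.64, edgeR adjusted p = 0.287). 21UR-5523 (WBGene00165433; 15657155 to 15657175) had 156 and 174 in wild type and 76.7 and 43.8 in *rpb-9* mutants, without overlap (fitted log2 ratio −1.45, SE 0.61, edgeR adjusted p = 0.379). 21UR-602 (WBGene00049299; 15433766 to 15433786) had 161 and 133 in wild type and 126 and 31.7 in *rpb-9* mutants, which also did not overlap, although the first mutant library came close to wild type (fitted log2 ratio −0.89, SE 0.77, edgeR adjusted p = 0.677). The ratio at 21UR-602 was −0.22 without *rpb-9* replicate 2 and −2.21 without *rpb-9* replicate 1, and its sign turned, to 0.41, with the total count. Further down the wild-type order, 21UR-705 (−1.54) and 21UR-2351 (−2.07) were lower without overlap. The genotypes overlapped at 21UR-458 (−0.21), 21UR-3442 (−0.39), 21UR-2069 (0.24) and 21UR-3180 (0.43), so the abundant precursors were not lower throughout.

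Among loci with at least 30 counts on average and no overlap, 4 of the 6 with the largest decrease were cluster II loci. Of all 84 tested loci that were lower without overlap, at any mean count, 53 were cluster II loci. 21UR-1437 (WBGene00048385; 16043481 to 16043501) had 98.7 and 87.2 in wild type and 22.7 and 10.6 in *rpb-9* mutants, a fitted log2 ratio of −2.45 (SE 0.72). 21UR-2351 (WBGene00050296; 13912953 to 13912973) had 166 and 71.96 in wild type and 36.7 and 19.6 in *rpb-9* mutants (−2.07, SE 0.74), and 21UR-5842 is given above. 21UR-1200 (WBGene00049858; 14558371 to 14558391) had 65.8 and 126 in wild type and 35.7 and 18.1 in *rpb-9* mutants (−1.82, SE 0.73). All of these carry GTTTC 43 or 44 bases upstream of the piRNA in the sequences above. Their adjusted p-values from edgeR lay between 0.287 and 0.355.

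Split by sequence, the tested cluster loci gave these values, as a description. The median log2 fold change was −1.30 at the 77 loci with GTTTC and −0.79 at the 31 without it. At 41 (53.2%) and 14 (45.2%) of them the mutants were lower without overlap, against 50.9% of all tested cluster loci. At the 18 loci whose annotated piRNA begins with a base other than T, such as 21UR-5842, the median was −2.11 and all 18 were below 0, against −0.90 and 78 of 90 at loci that begin with T. Loci on the plus and minus strands had medians of −0.90 and −0.95. Split by wild-type signal instead, the median was −1.74 at the 54 loci with the higher signal, with 39 lower without overlap. It was −0.49 at the 54 with the lower signal, with 16 lower without overlap. The wild-type signal is itself part of the fold change, so this split is not independent of it.

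The other 2 loci with the largest decrease were motif-independent and at gene starts. One begins 6 bases upstream of the annotated start of *mcm-3*, which encodes a subunit of the MCM helicase that unwinds DNA for replication (chromosome V, 15059585 to 15059605, minus strand). It had 2019 and 2610 in wild type and 532 and 497 in *rpb-9* mutants, and each library held a single sequence there, of 30 nt. The libraries of a genotype were close and the genotypes far apart, with a fitted log2 ratio of −2.17 (SE 0.54, edgeR adjusted p = 0.287). Rescue libraries gave 783 and 286 at this locus, both below wild type and the second also below both *rpb-9* libraries. The other lies 29 bases inside *rmd-1*, a gene for a regulator of microtubule dynamics (chromosome III, 9759123 to 9759143, plus strand), with 122 and 126 in wild type and 33.5 and 33.2 in *rpb-9* mutants. Both genotypes were again tight, and the log2 fold change was −1.89 (SE 0.59, edgeR adjusted p = 0.287). At this *rmd-1* locus the rescue libraries gave 80.7 and 61.3, between the genotypes. Another locus in *rmd-1*, at 9759098, held 222 and 49 counts in wild type and 198 and 41 in *rpb-9* mutants, which overlap.

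Of the 108 tested cluster loci, 1 was at 0 counts in both *rpb-9* libraries and 0 were at 0 in both wild-type libraries. The 3 loci with low mutant counts given next were chosen after their values had been seen. 21UR-6103 gave 47 and 19 wild-type counts and 2 and 0 mutant counts. 21UR-5729 gave 10 and 18 wild-type counts and 0 in both mutant libraries, so its wild-type mean signal of 27.9 was at least 7.16-fold higher than the mean signal that 3 counts in each mutant library allow (3.89). 21UR-8044, in cluster I and inside the protein-coding gene Y4C6B.4, gave 61 and 39 wild-type counts and 13 and 2 mutant counts. 21UR-8099, a cluster I locus inside C39H7.4 that the study names, had 0 counts in all 4 libraries, which allows a signal of up to 4.94 and 6.54 in wild type and 3.24 and 4.53 in *rpb-9* mutants. 21UR-4997, which the study also names, is not analysed here.

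**Figure D3:**
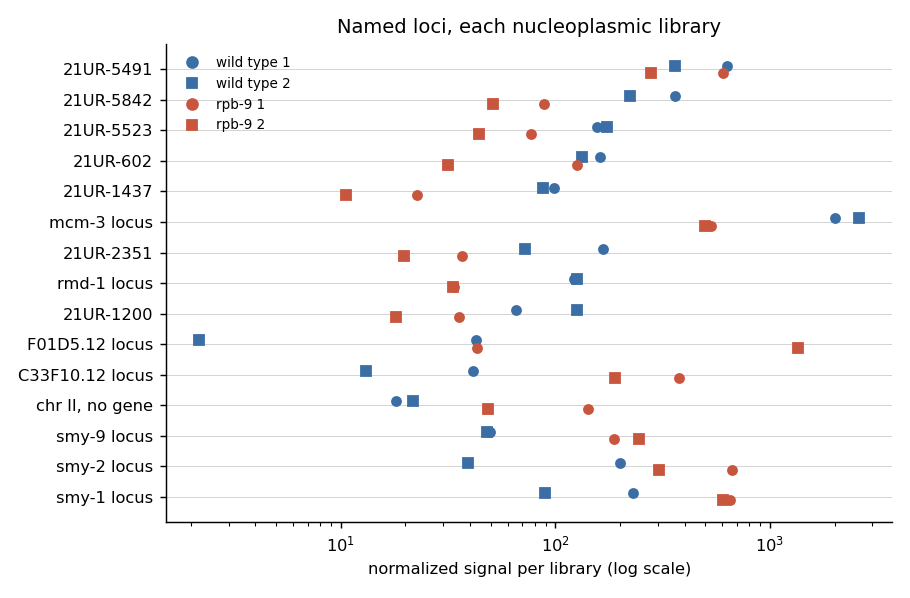
Normalized signal (log axis) of named loci in each of the 2 wild-type and 2 *rpb-9* nucleoplasmic libraries. From 21UR-5842 to 21UR-1200 every locus has both *rpb-9* values left of both wild-type values, and from the F01D5.12 locus to the *smy-1* locus every *rpb-9* value lies right of the wild-type values.

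Among loci with at least 30 counts on average and no overlap, the 6 with the largest increase were motif-independent, and 3 of them lay at SmY genes. Below that limit, 21UR-12205, a 21UR locus outside the clusters, had 1.65 and 0 in wild type and 33.5 and 16.6 in *rpb-9* mutants. Of all 42 tested loci that were higher without overlap, at any mean count, 39 were motif-independent. SmY RNAs are small nuclear RNAs of nematodes that are bound by Sm proteins and linked to spliced leader trans-splicing. The *smy-1* locus (chromosome IV, 9511817 to 9511837, minus strand) had 230 and 89.4 in wild type and 653 and 601 in *rpb-9* mutants, a fitted log2 ratio of 1.97 (SE 0.66). A locus 5 bases inside *smy-9* (chromosome IV, 13602207 to 13602227, plus strand) had 49.4 and 47.97 in wild type and 188 and 246 in *rpb-9* mutants (2.15, SE 0.59). The *smy-2* locus (chromosome IV, 9511446 to 9511466, minus strand) had 201 and 39.2 against 666 and 305 (2.01, SE 0.89). None overlapped between the genotypes, and the adjusted p-values from edgeR lay between 0.287 and 0.403. The *smy-2* value was 3.62 without wild-type replicate 1 and 1.27 without wild-type replicate 2, and that of *smy-1* was 2.81 and 1.44. In rescue libraries the signal was 510 and 774 at *smy-1* and 476 and 573 at *smy-2*, above wild type at both. SmY genes are a family of similar copies, and the counting could split reads between them, so the share of each gene is uncertain. The annotation lists them as snRNA or snoRNA genes. Of the 8 tested loci at SmY genes, 4 were higher without overlap and 0 lower. The genotypes overlapped at *smy-3*, *smy-7*, *smy-12* and the other *smy-9* locus.

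The remaining 3 differed in how steady they were. The locus 27 bases inside C33F10.12, a protein-coding gene (chromosome II, 4837712 to 4837732, minus strand), had 41.1 and 13.1 in wild type and 377 and 189 in *rpb-9* mutants, a fitted log2 ratio of 3.36 (SE 0.81, edgeR adjusted p = 0.287), which was 2.77 without *rpb-9* replicate 1 and 4.42 without wild-type replicate 1. A locus outside same-strand genes (chromosome II, 6348494 to 6348514, minus strand) had 18.1 and 21.8 in wild type and 142 and 48.4 in *rpb-9* mutants. The locus at the snoRNA gene F01D5.12 (chromosome II, 14018422 to 14018442, minus strand) had 42.8 and 2.18 in wild type and 43.2 and 1357 in *rpb-9* mutants. Its difference rested on 1 mutant library, the other being level with the first wild-type library, and the fitted log2 ratio of 4.91 was 0.91 without *rpb-9* replicate 2.

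In the remaining classes, most of the signal came from a snoRNA gene. W04D2.7 (WBGene00014541; chromosome V, 12491280 to 12491346) is 67 bases long, and the most frequent sequence there was 67 nt in every library, starting at its first base. Whether the RNA read there carried a cap was not tested. Its signal was 2377500 and 1146140 in wild type and 436131 and 1820720 in *rpb-9* mutants, which overlap (fitted log2 ratio −0.64, SE 1.04, edgeR adjusted p = 0.875). Without it, the motif-independent signal was 195313 and 88209 in wild type and 115016 and 178833 in *rpb-9* mutants, and the mutant mean was 103.6% of wild type. 21UR-2844, which lies 3 bases inside the snoRNA gene T26A8.6 (chromosome IV, 8428614 to 8428739, minus strand), made up nearly all the signal of 21UR loci outside the clusters, with 37468 and 18035 in wild type and 57719 and 19964 in *rpb-9* mutants. The genotypes overlapped (fitted log2 ratio 0.49, SE 0.77, edgeR adjusted p = 0.869). Its most frequent form was 35 nt in 3 libraries and 75 nt, the read length, in *rpb-9* replicate 2. Without 21UR-2844, the 21UR loci elsewhere summed to 26.3 and 87.2 in wild type and 136 and 68.0 in *rpb-9* mutants.

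Of the other abundant motif-independent loci, the one at the start of the non-coding RNA gene ZK265.11 (chromosome I, 8245600 to 8245620, minus strand) had 113009 and 35453 in wild type and 32622 and 99635 in *rpb-9* mutants. The one 60 bases inside *ndk-1*, a nucleoside diphosphate kinase gene (chromosome I, 10553833 to 10553853, minus strand), had 22731 and 22719 in wild type and 33860 and 29385 in *rpb-9* mutants. The first overlapped and the second did not (fitted log2 ratio 0.48, SE 0.58, edgeR adjusted p = 0.811). Another locus, 98 bases inside *ndk-1*, was lower without overlap, with 342 and 312 in wild type and 253 and 181 in *rpb-9* mutants. Its fitted log2 ratio was −0.59 (SE 0.55, edgeR adjusted p = 0.705).

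Nucleoplasmic precursors of the clusters, most of them from cluster II, were longer in *rpb-9* mutants. The median length over distinct sequences was 28 and 27 nt in wild type and 30 and 29 nt in *rpb-9* mutants, and the mean was 29.8 and 27.8 nt against 32.2 and 31.9 nt. The genotypes did not overlap, and the mean was 28.8 ± 1.44 nt (SD, n = 2) in wild type and 32.1 ± 0.23 nt (SD, n = 2) in *rpb-9* mutants (exact permutation test, two-sided, p = 0.333). The shift was present at both ends of the distribution. Sequences of up to 25 nt made up 33.0% and 41.2% of those in wild type and 21.2% and 19.6% in *rpb-9* mutants. Sequences of at least 36 nt, here called the long form, made up 15.4% and 7.67% in wild type and 25.5% and 23.1% in *rpb-9* mutants. Weighted by reads, the long form took 11.1% and 5.90% in wild type and 18.5% and 21.3% in *rpb-9* mutants. In cluster I alone, with 14 to 87 sequences a library, the genotypes overlapped, with medians of 27 and 26 nt in wild type and 31 and 27 nt in *rpb-9* mutants and a long form of 11.5% and 3.77% against 30.4% and 7.14%. Rescue libraries had medians of 28 and 27 nt and 19.8% and 11.1% of sequences in the long form.

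**Figure D4:**
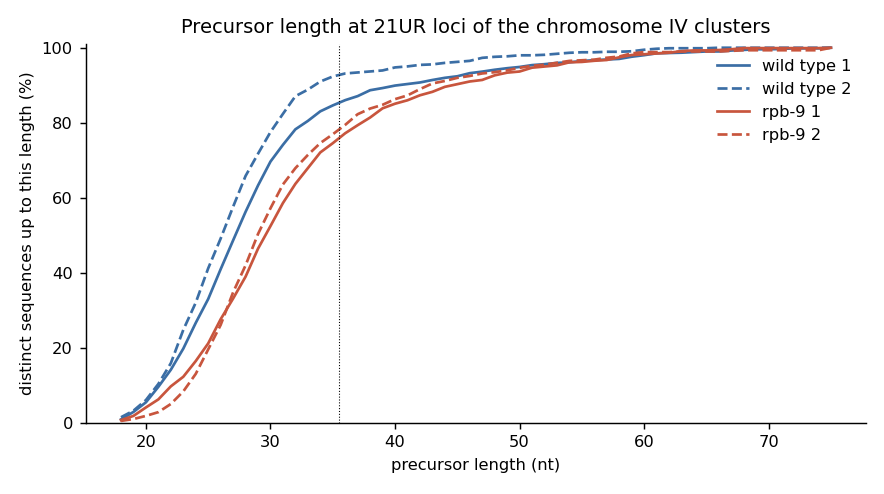
Cumulative share (%) of distinct precursor sequences of the cluster I and cluster II loci against length (nt) in each nucleoplasmic library, with a dotted line at the start of the long form (36 nt). Both *rpb-9* curves lie to the right of both wild-type curves around the middle of the distribution, with medians of 30 and 29 nt against 28 and 27 nt.

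The set of loci differs between libraries, so the lengths were also compared at the same loci. At the 116 cluster loci seen in all 4 libraries, the median of the locus medians was 28 and 27 nt in wild type and 29 nt in both *rpb-9* libraries. In *rpb-9* mutants, 75 of these loci were longer, 36 shorter and 5 equal, with a median difference of 1 nt. Between the wild-type libraries, which shared 265 cluster loci, 95 were longer and 132 shorter in replicate 2, and between the *rpb-9* libraries, which shared 203, 81 were longer and 87 shorter in replicate 2. Each of the 4 pairs of a wild-type and an *rpb-9* library had more loci longer in the mutant, from 113 longer and 78 shorter to 135 longer and 57 shorter.

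Motif-independent precursors had nearly the same lengths in both genotypes, with medians of 39 and 38 nt in wild type and 39 nt in both *rpb-9* libraries. Their long form took 57.9% and 53.8% of distinct sequences in wild type and 58.0% and 59.5% in *rpb-9* mutants. Over all loci, the median was 5.00 nt higher in *rpb-9* mutants. It was 2.5 nt higher over motif-dependent loci and 0.50 nt higher over motif-independent loci. The larger value over all loci came with a larger number of motif-independent sequences in the mutants, 2048 and 1719 against 1379 and 1065 in wild type.

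By locus, 77 loci had at least 10 counts in each of the 4 libraries and were tested for mean length with limma. None passed an adjusted p of 0.05 (0 of 77, 0%), the smallest adjusted p was 0.637, and 1 locus had an unadjusted p under 0.05. Across the 77 loci, 15.6% were longer in *rpb-9* mutants without overlap and 7.79% shorter. Of the 19 cluster loci among them, 6 were longer without overlap and 0 shorter. 21UR-1437, which was shorter without overlap, had too few counts to enter. The odds of the long form were tested at 60 loci with edgeR, with a term for each library, and 0 were called (0%), with 4 at an unadjusted p under 0.05. DESeq2 on the same design called 1. At 9 of the 10 cluster loci tested, the odds were higher in *rpb-9* mutants, with a median log2 odds ratio of 2.44 against 0.57 over all 60. A locus entered this test only if some library held a long-form read. At 21UR-1267, 21UR-5491, 21UR-3442 and 21UR-4978 all long-form reads came from 1 *rpb-9* library, and at 21UR-3901, the lower locus, from wild type alone. The direction at these loci was thus set by entry into the test, and nothing is concluded from the 9 of 10.

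Single cluster loci differed in both directions. These were named after their values had been seen. At 21UR-3180 the mean length was 28.3 and 27.1 nt in wild type and 31.6 and 32.1 nt in *rpb-9* mutants (difference 4.17 nt, SE 0.62, limma adjusted p = 0.637). Its most frequent form was 25 and 26 nt in wild type and 34 and 33 nt in *rpb-9* mutants. At 21UR-705, inside the ligand-gated ion channel gene *lgc-52*, the mean was 25.2 and 23.9 nt against 27.2 and 30.3 nt. At 21UR-5523 the difference was 1.02 nt (27.9 and 27.8 nt in wild type, 28.9 and 28.8 nt in *rpb-9* mutants), with the most frequent form at 28 nt in both wild-type libraries and 29 nt in both *rpb-9* libraries. In contrast, 21UR-5491, the most abundant cluster precursor, had 33.8 and 33.6 nt in wild type and 33.5 and 33.9 nt in *rpb-9* mutants, with 34 nt the most frequent form in all 4 libraries. 21UR-5842, whose wild-type signal was 4.16-fold that of the mutants, likewise had 29 nt as its most frequent form in all 4 libraries. 21UR-1437 was shorter, with means of 24.8 and 24.25 nt in wild type and 22.7 and 22.1 nt in *rpb-9* mutants. The most frequent form at 21UR-8044 was 28 and 30 nt in wild type and 23 and 24 nt in *rpb-9* mutants. These loci held only 7 and 2 counts in *rpb-9* replicate 2 and did not enter the length test.

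Among loci without overlap, the largest differences in mean length were at small nuclear RNA genes. 21UR-2844 had a difference of 14.7 nt (SE 12.7), but its genotypes overlapped. At the main *smy-9* locus (chromosome IV, 13602203 to 13602223, plus strand), the mean length was 25.5 and 24.3 nt in wild type and 32.9 and 46.3 nt in *rpb-9* mutants (difference 14.7 nt, SE 5.73, limma adjusted p = 0.978). The difference was 7.98 nt without *rpb-9* replicate 2 and 21.4 nt without *rpb-9* replicate 1, and it was 1.05 nt when each distinct sequence counted once. Its long form took 3.56% and 1.29% of the reads in wild type, 30.7% and 70.2% in *rpb-9* mutants and 5.43% and 3.42% in rescue libraries. Its signal overlapped between the genotypes, with 1017 and 1350 in wild type and 1126 and 938 in *rpb-9* mutants. In rescue libraries the long form at *smy-7* took 83.9% and 70.9%, against 80.95% and 44.4% in wild type and 81.5% and 95.6% in *rpb-9* mutants, so rescue overlapped with both. At *smy-1* the long form took 55.0% and 31.7% in wild type and 77.2% and 85.2% in *rpb-9* mutants, and the most frequent sequence was 60 nt in both mutant libraries. The mean length at *smy-1* differed by 9.48 nt over reads (3.87 nt without wild-type replicate 2) and by 0.79 nt over distinct sequences. Of the 8 tested loci at 7 SmY genes, a group formed after the values had been seen, 5 had a higher share of the long form in both *rpb-9* libraries than in both wild-type libraries and 1 a lower share. Over all 200 tested loci with a read in all 4 libraries, 30 had a higher share without overlap (15%) and 16 a lower share (8%). The odds ratio was above 1 at all 7 SmY loci where it could be tested and at 41 of all 60 loci tested, and 3 of the SmY loci were among the 4 loci with an unadjusted p under 0.05.

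At *sls-1.10*, one of the genes for the SL1 spliced leader RNA (chromosome V, 17118157 to 17118177, plus strand), the mean length was 22.1 and 23.6 nt in wild type and 26.8 and 40.6 nt in *rpb-9* mutants. That difference of 10.8 nt was 3.91 nt without *rpb-9* replicate 2 and 2.22 nt over distinct sequences. Its signal was 19940 in wild-type replicate 1 and 1154, 265 and 1360 in wild-type replicate 2 and the *rpb-9* libraries, so wild-type replicate 2 lay between the mutant libraries. SL1 genes are near-identical copies, and the reads of one cannot be told apart from those of another. Among motif-independent loci with at least 30 counts in each library, the other increases without overlap were 1.61 nt at a locus in *ndk-1* (0.31 nt without wild-type replicate 1) and 0.53 nt at a locus in *klp-16*, a kinesin gene. At cluster II loci the increases without overlap were 7.17 nt at 21UR-458, which lies at *smy-12*, 4.20 nt at 21UR-705, 4.17 nt at 21UR-3180, 1.56 nt at 21UR-4978, 1.02 nt at 21UR-5523 and 0.84 nt at 21UR-3442. In the other direction, the difference was −3.0 nt at *pdi-2*, a protein disulfide isomerase gene, −2.52 nt at a locus on chromosome I outside same-strand genes (8781699 to 8781719), and −2.49 nt at *eef-1B.1*, which encodes a translation elongation factor subunit. Over distinct sequences these 3 differences were −0.53, −0.70 and −0.28 nt, and without *rpb-9* replicate 2 that at the chromosome I locus was −0.72 nt. Adjusted p-values from limma were 0.978 for each of these loci but 21UR-3180 (0.637).

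The base at the 3′ end of the cluster precursors differed little between the genotypes. T was the last base of 52.0% and 53.4% of distinct sequences in wild type and 55.9% and 55.0% in *rpb-9* mutants. G was the last base of 8.02% and 8.08% in wild type and 6.34% and 6.52% in *rpb-9* mutants. In the 5 bases on each side of the 3′ end, A and T made up 69.96% and 68.5% in wild type and 71.2% and 71.1% in *rpb-9* mutants. None of these 3 measures overlapped between the genotypes, and the differences were small beside those in length. In rescue libraries T was the last base of 57.6% and 56.3% and G of 6.07% and 6.47%, on the mutant side of wild type for both bases. A and T made up 70.4% and 69.5% around the 3′ end there, so these measures did not all return to wild type.

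The nascent fraction of the same genotypes was used to ask whether the difference at a locus was particular to the nucleoplasm. In one edgeR fit over 8 libraries, the median nascent log2 fold change of the 108 tested cluster loci was −1.34, against −0.93 in the nucleoplasm, and 93 of the 108 were below 0 in both fractions. At motif-independent loci the medians were 0.38 and 0.13. The difference between the fractions was called at 0 of the 252 loci (0%), with a smallest adjusted p of 0.717 and 17 loci at an unadjusted p under 0.05, and with TMM factors it was also called at 0, with 18 at an unadjusted p under 0.05. The median difference at cluster loci was 0.36 on the log2 scale, a smaller decrease in the nucleoplasm, with 66 of the 108 loci on that side. Over all 252 loci the median difference was 0.046, with 131 on that side. It was −0.54 without nucleoplasmic *rpb-9* replicate 1 and 0.44 without nucleoplasmic wild-type replicate 1. The direction over all loci thus depended on single libraries, and nothing is concluded from that at the cluster loci. Cluster I signal in *rpb-9* mutants was 17.4% of wild type in the nascent fraction and 14.3% in the nucleoplasm, and cluster II signal was 43.5% and 53.5%.

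**Figure D5:**
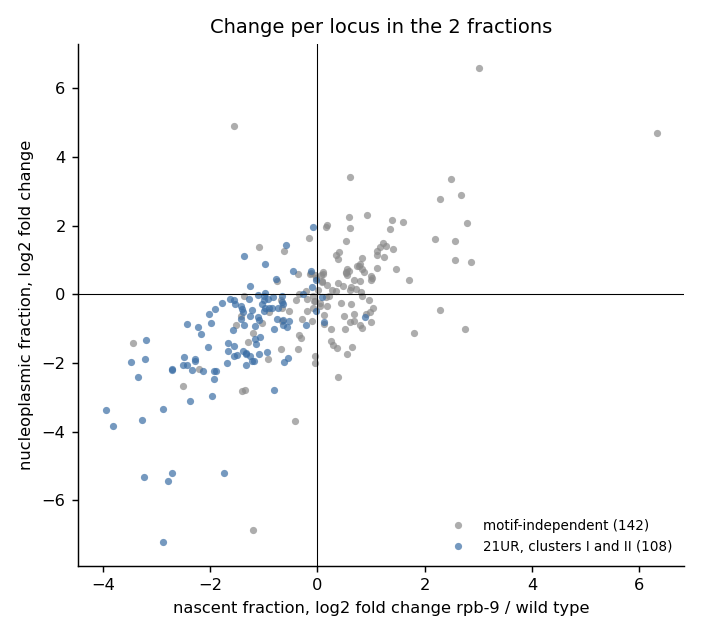
Log2 fold change (*rpb-9* over wild type) of each tested locus in the nascent fraction (horizontal) and in the nucleoplasmic fraction (vertical), for 108 cluster loci and 142 motif-independent loci. Cluster loci lie mostly below 0 in both fractions (93 of 108), and motif-independent loci lie on both sides of both zero lines.

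For the mature piRNAs of these loci, the deposited values are 1 value per genotype on the log2(RPM + 1) scale, in a table whose 4317 piRNAs are all lower in *rpb-9* mutants, so the direction is not a finding. The authors' value was 7.98 in wild type and 6.11 in *rpb-9* mutants for 21UR-5491, and 7.69 and 6.36 for 21UR-602. It was 4.28 and 2.11 for 21UR-1200. For 21UR-5491 the mature value differed by −1.87 on that scale, where the nucleoplasmic precursor signal overlapped between the genotypes.

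In rescue libraries, the summed signal of cluster I was 332 and 492 and that of cluster II was 6973 and 10759. Cluster II was at 101.5% of the wild-type mean and cluster I at 69.5%, and in both clusters each rescue library lay above both *rpb-9* libraries. This holds with the authors' constants. As a share of counts without W04D2.7, both clusters together held 2.45% and 3.55% in rescue libraries, 4.57% and 6.58% in wild type and 3.59% and 1.53% in *rpb-9* mutants, so the rescue libraries lay within the range of the mutants and below wild type. As a share of all counts, *rpb-9* replicate 1 (1.05%) lay above both rescue libraries (0.557% and 0.632%).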

How the data were processed

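Short capped RNA was sequenced from nucleoplasmic fractions of wild type, *rpb-9* (*mj261*) mutants and rescue animals, 2 libraries each, and from nascent fractions. The authors deposited a table with 1 line per capped read position and library, holding whole-number read counts per sequence and a normalized signal, which is the count times a constant of 1.08 to 2.18 for the 4 libraries compared. The build was ce11 by the submitters' processing notes. Every deposited line starts 2 nt upstream of the piRNA, so a test of the 5′ end was void. Lengths run from 18 to 75 nt, and 75 nt is the read length. Repeated lines (364 in the 4 libraries) were removed and counts were summed per locus. The wild-type library names (sx1316) were matched by elimination. Mature piRNA values were deposited by the authors as log2(RPM + 1), 1 value per genotype.

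Cluster I (4500000 to 7000000) and cluster II (13500000 to 17200000) bounds on chromosome IV were set by hand. A locus entered the abundance test (edgeR 4.0.16 in R 4.3.3, quasi-likelihood, library sizes from the authors' constants) with 10 or more counts in 2 or more libraries. Mean length was tested with limma 3.58.1 at loci with at least 10 counts in each library. The long form was tested with edgeR, with a term per library. All p-values were adjusted by Benjamini-Hochberg over all loci tested. Library sums and medians were compared by exact permutation. The fits were run on simulated data. For abundance the simulated spread between libraries was set far below the common dispersion of the 4 libraries (0.487), so that run does not show the power of the test here. DESeq2 1.42.0, TMM factors, total counts, other filters, a replicate block and leaving out each library were tried as alternatives. Named loci were those with the highest wild-type signal (5 motif-dependent, 3 motif-independent), the 6 largest decreases and 6 largest increases without overlap among loci with at least 30 counts on average, the largest length differences without overlap among loci with at least 30 counts in each library (5 longer, 3 shorter), and 2 loci that the study names. Members and lists were chosen with earlier results of these data known. The labels do not state whether libraries of a genotype came from separate cultures, so the spread may be technical. Sequences and annotation are from WBcel235, and 5952 of 6266 named 21UR loci had the annotated start.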

Additional observations from a re-analysis of the deposited data

How the results depend on the processing

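The count of loci called for abundance was 0 with the authors' constants, and 7 with TMM factors (5 higher in *rpb-9* mutants), 5 without the filter on low counts, 6 with DESeq2, and 0 to 3 when 1 library was left out, with 3 calls without *rpb-9* replicate 2. With the replicate number as a block it was 13, but there are only 2 pairs, the labels do not say what the numbers share, and the deviations of same-numbered libraries correlated at 0.14 over 252 loci, so the numbers were not taken to pair the libraries. The long-form test called 1 locus from 40 nt, 1 with DESeq2, 1 with at least 30 counts in total, and 0 to 2 when 1 library was left out. Length and the difference between fractions gave 0 calls in every alternative run. Scaled by the total count, the cluster II sum reversed to 0.30, the cluster median to 0.041, 21UR-602 to 0.41, 21UR-5491 to 1.10 and the ZK265.11 locus to 0.53. With TMM factors, 21UR-5491 was at 0.20 and the ZK265.11 locus at 0.38. Leaving out 1 library gave log2 ratios of −3.66 to −2.28 in cluster I, −1.52 to −0.47 in cluster II, −0.47 to 1.10 at 21UR loci elsewhere (−0.47 without *rpb-9* replicate 1) and −1.79 to 0.071 at motif-independent loci (0.047 without wild-type replicate 1, 0.071 without *rpb-9* replicate 1). The range was −0.070 (without wild-type replicate 2) to 0.43 for the motif-independent median, −0.48 to 1.11 for 21UR-2844, −0.83 to 0.30 for 21UR-5491, −2.01 to 0.047 for W04D2.7 and −1.19 to 0.90 for the ZK265.11 locus. Without *rpb-9* replicate 1, 21UR-2844 was at −0.48, W04D2.7 at 0.047 and the ZK265.11 locus at 0.42. Without wild-type replicate 1, 21UR-5491 was at 0.30 and the ZK265.11 locus at 0.90, and without *rpb-9* replicate 2, 21UR-5491 was at 0.29. Of the 19 loci named for their abundance, 15 kept their sign whichever library was left out. The sign turned at 21UR-2844, 21UR-5491, W04D2.7 and the ZK265.11 locus, where the genotypes overlapped. Without overlap and with fixed constants, leaving out 1 library cannot turn the sign. Most of the loci were named for their lack of overlap, so nothing is concluded from this count. The causes were not tested. The difference in median length over all loci was 5.00 nt, 0 nt weighted by reads, and 4.50 to 5.50 nt when 1 library was left out. Taking only the most used start at each locus could not differ from the reported lengths and was not run. Most loci have few counts, which limits the tests per locus.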
